A study of Mus musculus with 6 samples.

Results

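Periaxin (*Prx*), dystrophin-related protein 2 (*Drp2*) and the dystroglycan complex of Schwann cells (SCs) were described in sciatic nerves of mice at postnatal day 9 (P9). The 10 genes were taken by their symbols from the series table of 46603 genes, and each symbol matched 1 row. Besides *Prx* and *Drp2* they are the dystroglycan gene *Dag1*, the dystrophin family genes *Utrn*, *Dmd* and *Dtna*, the syntrophin gene *Sntb1* and the sarcoglycan genes *Sgcb*, *Sgcd* and *Sgce*. RNA-Seq libraries came from 3 *Ep400ΔPNS* mice, which carried conditional *Ep400* alleles and a *Dhh::Cre* transgene, and from 3 controls with conditional *Ep400* alleles and no such transgene in their labels. *Dhh::Cre* deletes the gene in cells of the SC lineage from the late precursor or early immature stage on, so that other cells of the nerve keep it. The labels give a mixed 129SvJ/C57Bl/6J background for all mice, whereas the methods name C3H and C57Bl/6J, and the nerve RNA holds transcripts of every cell type in the tissue.

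The only values used are means of normalized read counts over all 6 libraries, with *Ep400ΔPNS* and control nerves pooled. That column holds neither genotypes nor single libraries, so no gene was compared between *Ep400ΔPNS* and control nerves and no spread between mice can be given. Any difference between genotypes is averaged into these levels. The loss of *Ep400* could likewise not be checked per library. Levels are set side by side between genes, and differences between genes are stated without a test.

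Dystroglycan is a receptor for laminin and other matrix proteins. Its precursor is cut into an extracellular part, which binds the matrix through its sugar chains, and a membrane-spanning part, which binds dystrophin-family proteins inside the cell. In myelinating SCs the complex sits in the outer membrane that faces the basal lamina, where periaxin and Drp2 join dystroglycan in the patches between the cytoplasmic channels known as Cajal bands. Loss of periaxin causes demyelinating neuropathy in mice and Charcot-Marie-Tooth disease in humans.

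*Prx*, *Dag1*, *Utrn* and *Drp2* were among the most abundant transcripts of the nerve per length, and the order ran from periaxin over dystroglycan to utrophin and Drp2. With a mean of 84779, *Prx* ranked 21 among the 46603 genes by normalized read count. *Utrn* followed with 73054 and *Dag1* with 51421, and these 3 genes held 84.3% of the summed mean of the 10. *Drp2* had a mean normalized read count of 18690 and *Dmd* one of 13674. These 5 genes lay above the 99th percentile of the 30644 genes with a mean above 0. Among genes with a mean of at least 10, *Dmd* was just below it, at 98.96. The other 5 were far lower, with means of 2611 for *Sgcb*, 1227 for *Sgce*, 1178 for *Sgcd*, 1141 for *Sntb1* and 515 for *Dtna*. The lowest percentile, that of *Dtna*, was 76.3. Together the 10 genes held 0.97% of the summed means of the table, which came to 25608535 normalized reads per average library.

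Counting error was small beside most of these differences. The smallest means of the table repeat at 6 steps, each the worth of 1 read in 1 library, from which size factors of 0.908 to 1.20 follow. These bound the reads behind each mean. *Dtna*, the lowest of the 10, rested on 2805 to 3710 reads over the 6 libraries, and *Prx* on 461959 to 610843. The standard error from counting alone was therefore at most 1.89% of the mean for *Dtna* and 0.147% for *Prx*. It covers sampling of reads and not the variation between mice, which is unknown here.

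Long transcripts give more reads per molecule, so levels of different genes are compared per kilobase (kb) of exons, taken as the joined length of all exons annotated for a gene. On this scale *Prx* was at 15196 normalized reads per kb, *Dag1* at 8089, *Utrn* at 4270 and *Drp2* at 2185. *Sgcb* followed at 644 and *Dmd* at 575, then *Sntb1* at 214, *Sgcd* at 143, *Sgce* at 116 and *Dtna* at 30.4. For comparison, the median over 30396 genes with a mean above 0 and an annotated length was 14.8 normalized reads per kb. All 10 genes lay above it, *Dtna* by the least. By level per kb, *Prx*, *Dag1* and *Utrn* lay above the 99th percentile of these genes. *Drp2* was at 98.9, *Sgcb* at 95.1 and *Dmd* at 94.4. The range from *Prx* to *Dtna* is wide, and *Prx* alone made up 48.3% of the summed level per kb of the 10.

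**Figure D1:**
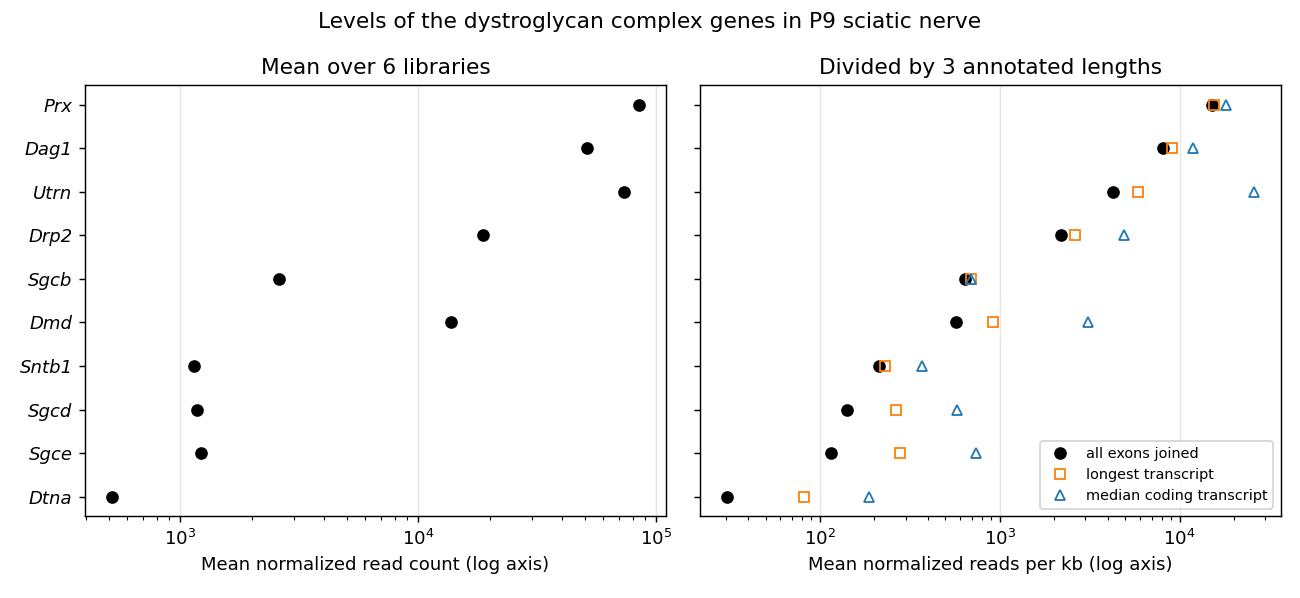
Levels of the 10 genes as mean normalized read counts over 6 libraries (left, log axis) and divided by 3 annotated lengths (right, normalized reads per kb, log axis), with 1 point per gene and length and no error bars, since the means carry no spread. Prx leads at 15196 per kb of joined exons and Dtna is lowest at 30.4. The choice of length moves Utrn, Dmd, Sgcd, Sgce and Dtna far more than Prx or Sgcb.

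Some neighbors in this order trade places with the length that is used. With the longest annotated transcript in place of the joined exons, *Dmd* (917 normalized reads per kb) stood above *Sgcb* (690). *Sgce* (278) and *Sgcd* (265) then stood above *Sntb1* (232). The order *Prx*, *Dag1*, *Utrn*, *Drp2* held with both lengths. It changed with the median length of the protein-coding transcripts, because that median is only 2.81 kb for *Utrn*, whose 8 coding transcripts range from 0.66 to 12.4 kb. On that scale *Utrn* would be at 25956 normalized reads per kb and *Prx* at 18158. The order of *Utrn* relative to *Prx* and *Dag1* is thus set by the transcripts assumed.

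*Prx* lies on the plus strand of chromosome 7 of mm10 from 27499324 to 27520214 and encodes a scaffold protein with a PDZ domain. Its longest coding transcript has 6 exons and 5.43 kb. Per kb of joined exons, *Prx* was at 0.123 times the level of *Pmp22*, which encodes a membrane protein of compact myelin, and at 0.0979 and 0.0792 times with the longest and the median coding transcript. It was 5.23 times as abundant as *Mag*, which encodes an adhesion protein of the axon-facing membrane, with 3.21 and 2.94 times by these other lengths. Relative to *Gjb1*, which encodes connexin 32, it was 13.7 times as abundant, and 13.1 times with the longest transcript. Exons of the antisense gene *Gm15541* cover 300 bases of *Prx* exons (5.38%) on the other strand. That gene had a mean normalized read count of 136, against 84779 for *Prx*. Whether the counting took account of strand is not stated in the labels or methods, so reads of the 2 genes in the shared bases cannot be told apart.

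*Drp2* lies on the plus strand of the X chromosome from 134404551 to 134456573 and encodes a short relative of dystrophin that binds both periaxin and dystroglycan. *Prx* stood 6.95 times above *Drp2* per kb of joined exons, and 3.71 to 5.96 times above it with the other lengths. *Dag1*, on the minus strand of chromosome 9 from 108204634 to 108263958, encodes both parts of dystroglycan in 1 open reading frame of 893 residues. It was 3.70 times as abundant as *Drp2* per kb of joined exons, 3.47 and 2.44 times with the longest and the median coding transcript, and 1.92 times as abundant as the integrin gene *Itgb1*, which encodes a chain of other laminin receptors. These ratios are between gene means and say nothing of protein amounts.

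Within the dystrophin family, most transcripts per length came from utrophin. *Utrn*, on the minus strand of chromosome 10 from 12382188 to 12869365, encodes the largest relative of dystrophin and held 60.2% of the family's summed level per kb. *Drp2* held 30.8% and *Dmd* 8.10%. The dystrobrevin genes *Dtna*, on the plus strand of chromosome 18 from 23415135 to 23659715, and *Dtnb*, not one of the 10 genes, encode binding partners of dystrophin and held 0.429% and 0.426%. Divided by the longest transcript, the shares of *Utrn*, *Drp2* and *Dmd* were 61.5%, 27.3% and 9.56%. *Utrn* had the largest share with every length tried. If all *Dmd* reads came from its 4.44 kb coding transcript, *Dmd* would be at 3081 normalized reads per kb. *Drp2* was at 2620 by its longest transcript, so the order of *Dmd* and *Drp2* depends on the transcripts assumed.

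*Dmd*, which encodes dystrophin, is transcribed from several promoters into forms of very different length. The gene spans 2257 kb on the plus strand of the X chromosome from 82948870 to 85206141, and 1.05% of that span is exonic. GENCODE M21 lists 14 transcripts, 3 of them protein-coding. The coding transcript with 79 exons and 14.9 kb starts at 82948903. The other coding transcripts, of 4.44 and 1.86 kb, start at 85048413 between exons 62 and 63 of the long transcript, where the promoter of the short and widely expressed isoform Dp71 is known to lie. A further transcript of 8 exons, annotated as retaining an intron, starts at 84772711 between exons 55 and 56. The promoter of Dp116, the dystrophin isoform known from SCs, lies in that intron. Full-length dystrophin is known above all from muscle. The mean of 13674 sums reads of all these forms. It would amount to 917 normalized reads per kb if all came from the 14.9 kb transcript. With all reads from the 4.44 kb or the 1.86 kb transcript it would be 3081 or 7360.

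RefSeq (GRCm38.p6) gives sequences at 2 starts of *Dmd*, and both are shown because the start used sets the length by which the mean is divided. Neither is the start between exons 55 and 56, which has no such sequence and no annotated coding transcript. The 2 windows are chrX:82948620-82948919 and chrX:85048045-85048344, plus strand, with the 50 bases from the start site on in capitals.
Dmd, upstream start: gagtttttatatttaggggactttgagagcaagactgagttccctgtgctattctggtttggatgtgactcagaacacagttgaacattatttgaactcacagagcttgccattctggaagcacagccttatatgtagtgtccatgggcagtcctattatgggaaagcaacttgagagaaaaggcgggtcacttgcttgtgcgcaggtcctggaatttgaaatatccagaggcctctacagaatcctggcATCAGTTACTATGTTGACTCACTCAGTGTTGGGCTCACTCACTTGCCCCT
Dmd, downstream start: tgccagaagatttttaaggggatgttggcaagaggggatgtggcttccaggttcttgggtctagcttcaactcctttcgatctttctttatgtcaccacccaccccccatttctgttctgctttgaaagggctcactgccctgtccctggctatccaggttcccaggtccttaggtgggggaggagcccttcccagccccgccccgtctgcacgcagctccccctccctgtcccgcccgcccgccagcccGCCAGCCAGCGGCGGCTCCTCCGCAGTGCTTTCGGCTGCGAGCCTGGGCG
The upstream window holds 2 CG dinucleotides and the downstream window 14, against a median of 7 over 32851 promoter windows of the same length. A total of 6 of the 10 genes have such windows in the RefSeq table, 8 windows in all. The first window of *Dag1* by position holds 47 CG dinucleotides, more than 98.6% of all windows, and those of *Prx* and *Utrn* hold 3 and 2. Of the 8 windows, 5 held more CG dinucleotides than the median, among them both of *Dag1* and those of *Sgcb* (24) and *Sgcd* (12). The windows of *Prx* and *Utrn* held fewer. The start site of the *Utrn* window, 12861735, lies inside the gene, which begins at 12869365 on the minus strand. Likewise the start site of the *Sgcd* window, 47379325, lies inside that gene, which begins at 47988969 on the minus strand. Whether the reads of *Utrn* and *Sgcd* came from these starts is unknown. These counts describe sequence and were not tested against levels.

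**Figure D2:**
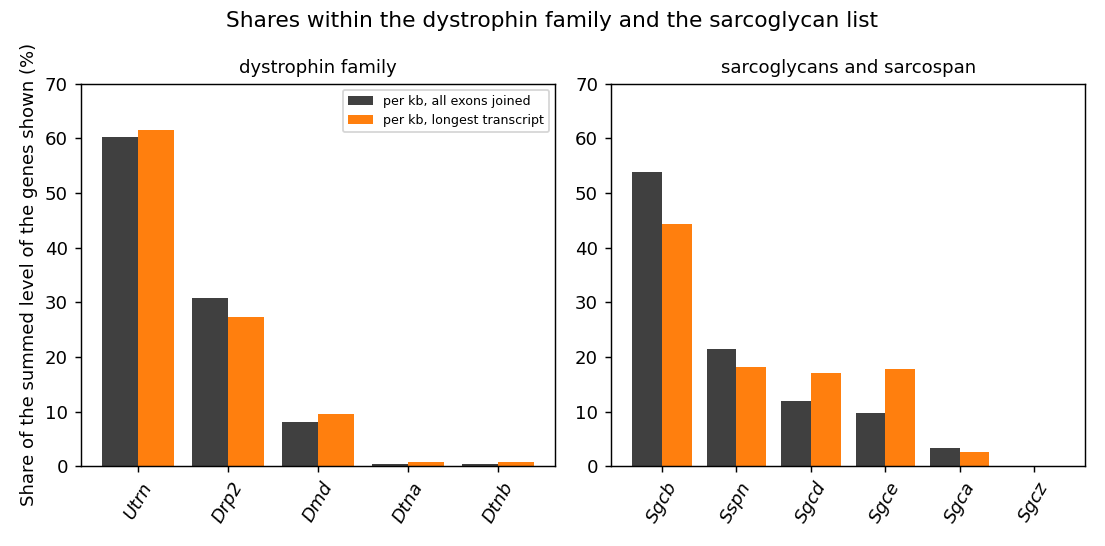
Share of each gene in the summed level per kb of the genes shown in its panel (percent), for the dystrophin family (left) and for sarcoglycan genes with sarcospan (right), by joined exons (dark bars) and by the longest transcript (orange bars). By joined exons Utrn holds 60.2% of the left panel and Sgcb 53.8% of the right, and both lead with the longest transcript as well.

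Sarcoglycans are transmembrane proteins that brace the dystroglycan complex, and in SCs the complex is known to contain epsilon- in place of alpha-sarcoglycan. *Sgcb*, on chromosome 5 from 73632749 to 73647790, encodes beta-sarcoglycan and held 53.8% of the summed level per kb of *Sgca*, *Sgcb*, *Sgcd*, *Sgce*, *Sgcz* and *Sspn*, the genes over which these shares are taken. The share of *Sgcd*, the delta-sarcoglycan gene on chromosome 11 from 46896253 to 47988969, was 11.9%, and that of *Sgce*, the epsilon-sarcoglycan gene on chromosome 6 from 4674350 to 4747207, was 9.66%. All 3 lie on the minus strand. *Sspn*, the gene of the associated protein sarcospan, held 21.4%. By the median coding transcript *Sgce* held 31.6% and *Sgcb* 29.4%, so that *Sgcb* led with the other 2 lengths but not with this one. *Sgce* is an imprinted gene in mice.

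*Sgca*, which encodes the alpha-sarcoglycan of striated muscle, was low, with a mean normalized read count of 67.5, or 38.9 normalized reads per kb of joined exons. The zeta-sarcoglycan gene *Sgcz* had a mean of 1.47. *Sgce* was 2.97 times as abundant as *Sgca* per kb of joined exons and 7.09 times per kb of the longest transcript. The size of this ratio therefore depends on the length, while *Sgce* was higher with each length tried.

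Syntrophins are adapters that bind dystrobrevins and dystrophins. *Sntb1*, the beta-1-syntrophin gene on the minus strand of chromosome 15 from 55636388 to 55906949, was at 214 normalized reads per kb of joined exons, and the beta-2-syntrophin gene *Sntb2* was at 84.3. The gamma-syntrophin genes *Sntg1* and *Sntg2* had means of only 6.02 and 18.0.

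Most ligand genes of dystroglycan were lower than the receptor gene per kb of joined exons. Of 10 ligand genes, the perlecan gene *Hspg2* was highest at 14326 normalized reads per kb of joined exons, followed by the laminin genes *Lamc1* at 5780 and *Lamb1* at 4435 and the biglycan gene *Bgn* at 2951, against 8089 for *Dag1*. Their median was 2116, and the lowest was the laminin alpha-1 gene *Lama1* at 7.50. *Lama2*, the laminin alpha-2 chain of the SC basal lamina, was at 1921, and *Dag1* stood 4.21 times above it, against 2.78 times with the longest and 1.62 times with the median coding transcript.

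Transcripts of genes listed for the glycosylation of dystroglycan were far lower per kb of joined exons than those of *Dag1*. A total of 18 such genes were found in the table, and 17 of them had a mean of at least 10. Their median was 134 normalized reads per kb. The highest were *Dpm3*, a subunit of dolichol-phosphate-mannose synthase, at 612, the glucuronyltransferase gene *B4gat1* at 412, *Pomgnt1*, which extends O-linked mannose, at 327 and *Dpm2* at 205. The xylosyl- and glucuronyltransferase gene *Large*, which polymerizes the laminin-binding repeat, was at 184, and its paralog *Gyltl1b* had a mean of 6.34.

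Scaffold genes of the cell cortex were abundant as well. *Ahnak*, which encodes a giant scaffold protein, had a mean normalized read count of 86640, close to the 84779 of *Prx*. Per kb of joined exons it was at 4345. The ezrin gene *Ezr*, the moesin gene *Msn* and *Slc9a3r1*, all of the membrane-cytoskeleton linkage, were at 2175, 1611 and 580. Among other laminin receptors, *Itgb1* was at 4213 normalized reads per kb, *Itga6* at 3227, *Itgb4* at 1124 and *Bcam* at 510.

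**Figure D3:**
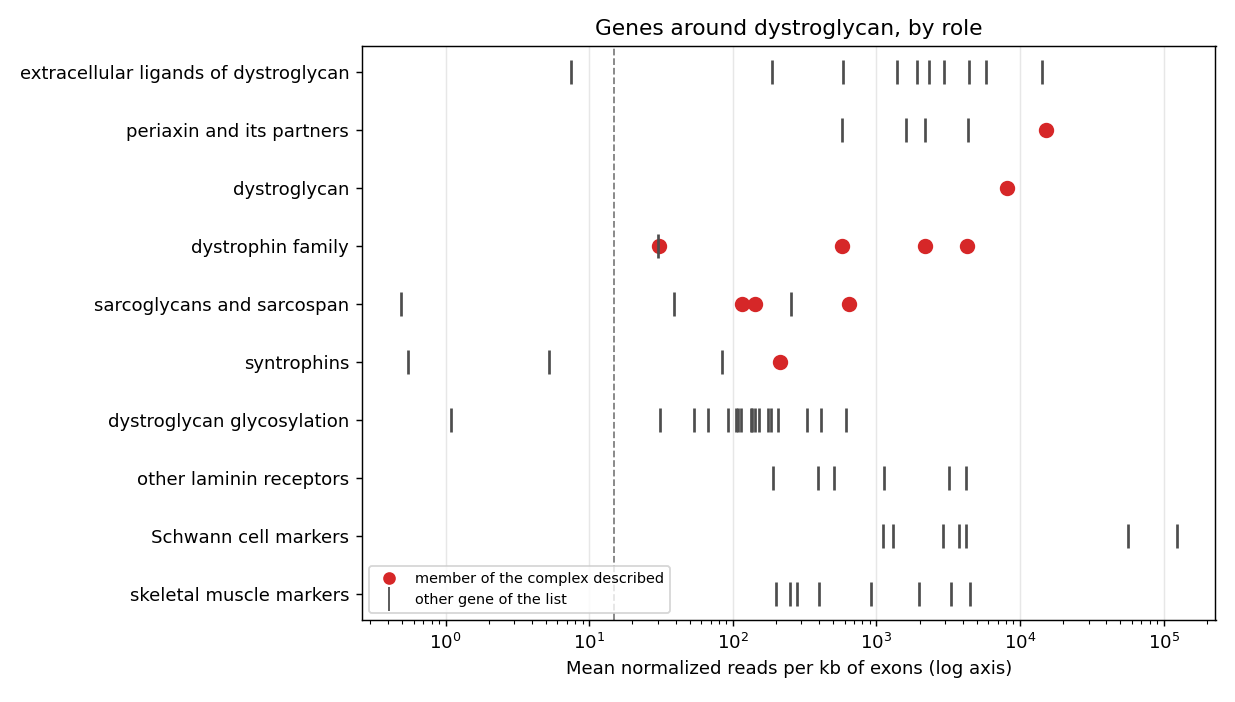
Mean normalized reads per kb of joined exons (log axis) for genes around dystroglycan, 1 row per role, with the 10 genes described as red circles, other genes of each list as gray ticks and the median of all genes with a mean above 0 as a dashed line at 14.8. Dag1 and the ligand gene Hspg2 stand at 8089 and 14326, and the genes of dystroglycan glycosylation center on 134.

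The nerve RNA held markers of several cell types, and no level of the 10 genes could be assigned to one of them. Markers of SCs were led by *Pmp22*, *Mbp*, *S100b* and *Sox10* at 123307, 56358, 4211 and 3752 normalized reads per kb. Markers of skeletal muscle, which is known to use *Dmd*, *Dag1* and the sarcoglycans too, were present in all 8 cases, between 200 for *Des* and 4519 for *Acta1*, with *Myh4* at 3325, *Tnnt3* at 1990 and *Ckm* at 917. *Acta1* stood 7.86 times above *Dmd* per kb of joined exons, 5.23 times with the longest and 2.18 times with the median coding transcript. Without division by length its mean was 0.508 times that of *Dmd*. Whether RNA of muscle cells contributed to the levels of *Dmd* and the sarcoglycan genes was not tested. Fibroblast markers were led by *Col1a1* at 99007, *Col3a1* at 44685, *Dcn* at 8191 and *Pdgfra* at 677. The 4 endothelial markers *Cdh5*, *Pecam1*, *Kdr* and *Tek* were at 1309, 350, 165 and 165, and the macrophage markers *Cd68*, *Csf1r*, *Adgre1* and *Aif1* at 550, 415, 140 and 108. Smooth muscle and pericyte markers were *Rgs5* at 1571, *Acta2* at 971, *Pdgfrb* at 683 and *Myh11* at 214. Perineurial markers *Tjp1*, *Slc2a1* and *Cldn1* were at 1167, 909 and 603. The axonal and neuronal genes *Nefm*, *Nefl*, *Snap25* and *Rbfox3* were low, at 72.8, 64.3, 6.04 and 0.827. In bulk RNA, fewer cells of a type and less RNA per cell cannot be told apart.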

How the data were processed

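Libraries were made by the authors with a stranded mRNA kit from sciatic nerves of 3 *Ep400ΔPNS* and 3 control mice at P9. Per the methods and the submitters' processing notes, reads were aligned to mm10 with STAR 2.5.1, unique mappings to Ensembl genes were counted with HTSeq, and the authors ran DESeq2. The table header names Ensembl release 82 and the methods release 85. The deposited signal is 1 mean per gene of the authors' size-factor-normalized counts, averaged over all 6 libraries. Its header says raw, but the values are not whole, and low ones are built from 6 steps. The other columns of numbers hold the authors' own comparison of the genotypes (log2 fold change, its error, Wald statistic, p-values and a fold column). They were not used and nothing was tested. A total of 0 columns of single samples were left out.

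Exon lengths and coordinates were taken from GENCODE M21, also of mm10, which holds 46005 of the 46603 gene IDs. The means sum to 25608535. Named are the 10 genes, genes of the dystrophin, sarcoglycan and syntrophin lists and the 4 highest per kb of each other list. Also named are some genes chosen after their values were seen (*Lama1*, *Lama2*, *Large*, *Gyltl1b*, *Mag*, *Gjb1*, *Des*, *Slc9a3r1*, *Gm15541*). Some genes of these lists, and results that need them, are not reported here and enter no list, rank within a list or share. The members and lists were chosen with earlier results of these data known. Alternatives were 2 other lengths, 2 other sets of genes for ranks and shares without division by length. Recovery of whole reads from low means, with a tolerance of 1e-12, was tested on simulated data and gave 15 of 15 sets of reads uniquely. Python 3.11.15, numpy 2.4.6, pandas 2.3.3 and matplotlib 3.10.9 were used.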

Additional observations from a re-analysis of the deposited data

How the results depend on the processing

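Nothing was tested, so the alternatives concern levels, ranks and shares. With the longest transcript as length, levels in normalized reads per kb were 15604 for *Prx*, 9082 for *Dag1*, 5900 for *Utrn*, 2620 for *Drp2*, 917 for *Dmd*, 690 for *Sgcb*, 278 for *Sgce*, 265 for *Sgcd*, 232 for *Sntb1* and 81.8 for *Dtna*. With the median coding transcript they were 18158 for *Prx*, 11947 for *Dag1*, 25956 for *Utrn*, 4889 for *Drp2*, 3081 for *Dmd*, 690 for *Sgcb*, 741 for *Sgce*, 579 for *Sgcd*, 371 for *Sntb1* and 189 for *Dtna*. Shorter assumed lengths raise these values by construction. Shares by the longest transcript were 61.5% for *Utrn*, 27.3% for *Drp2*, 9.56% for *Dmd*, 44.3% for *Sgcb*, 17.0% for *Sgcd* and 17.9% for *Sgce*. By the median coding transcript they were 75.8% for *Utrn*, 14.3% for *Drp2*, 29.4% for *Sgcb*, 24.7% for *Sgcd* and 31.6% for *Sgce*. Without division by length they were 68.8% for *Utrn*, 17.6% for *Drp2*, 12.9% for *Dmd*, 41.0% for *Sgcb*, 18.5% for *Sgcd* and 19.3% for *Sgce*. Among genes with a mean of at least 10, the percentiles were 89.2 for *Sgcb*, 76.4 for *Sgce*, 75.6 for *Sgcd*, 75.0 for *Sntb1* and 57.4 for *Dtna*, and among protein-coding genes 90.2, 78.6, 77.9, 77.3 and 61.4 in the same order. The percentiles of *Prx*, *Utrn*, *Dag1*, *Drp2* and *Dmd* moved by less than 1 point. That of *Dmd* fell from 99.4 to 98.96 among genes with a mean of at least 10. No paired analysis was possible because the values pool all 6 libraries, and for the same reason no replicate could be left out.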

Other observations

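For the rarest paralogs of the families, the reads of each library were worked out from the mean, a step added after seeing the data. The 6 libraries carry no label of genotype and are not compared as groups. *Sgcz* had 9 reads in all, found in 2 of the 6 libraries. *Sntg1* had 38 reads, with normalized counts of 2.07 at the lowest, 5.34 at the median and 14.2 at the highest, so that 39.2% of its mean lay in 1 library. *Sntg2* had 106 reads, with 7.25 at the lowest, 18.2 at the median and 28.0 at the highest. For *Sgca*, 2 sets of reads gave the same mean, and no values per library are given.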
